A study of Mus musculus with 8 samples.

Results

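The 10 genes described here carry iron into macrophages, hold it, free it from heme and send it out again. They were taken by symbol: Tfrc, Slc11a2, Slc39a14 and Steap3 for uptake, Fth1 and Ftl1 for storage, Slc11a1 and Hmox1 for recycling, Slc40a1 for export and Ireb2 for sensing. All 10 were among the 23354 gene symbols of each table, and all 10 passed the filter on low values, so every member entered the tests. RNA was sequenced from total RNA extracts.

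The cells were bone marrow-derived macrophages of 8 week old mice on the C57BL/6J strain, differentiated over 7 days with conditioned medium of L929, a fibroblast line that secretes the macrophage growth factor CSF1. There were 4 groups of 2 libraries each: Ern1f/fLyz2-Cre macrophages with IL-4, Ern1f/fLyz2-Cre control macrophages, Ern1f/f macrophages with IL-4 and Ern1f/f control macrophages. IL-4, the cytokine that drives alternative activation, was given at 20 ng/ml for 24 h. Both genotypes carry floxed Ern1, the gene of the endoplasmic reticulum stress sensor IRE1α, and Ern1f/fLyz2-Cre cells also carry Cre expressed from the Lyz2 locus of myeloid cells. The control macrophages of both genotypes carry the floxed alleles too, so no group has unmodified Ern1. Groups follow the sample titles. The genotype field of the labels differs from the title in 4 of the 8 libraries: by that field all 4 of the libraries numbered 1 would be Ern1f/f, and all 4 of those numbered 2 Ern1f/fLyz2-Cre. The libraries numbered 1 are called set 1 below and those numbered 2 are called set 2. The labels do not say whether the libraries of a group came from separate animals, so the p-values measure the spread between these libraries, which may be technical.

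Most iron enters cells bound to transferrin, which the transferrin receptor (Tfrc) carries into endosomes, where a ferrireductase such as STEAP3 reduces the iron and DMT1 (Slc11a2) moves it into the cytosol. ZIP14 (Slc39a14) takes up iron that is not bound to transferrin, ferritin heavy and light chains (Fth1, Ftl1) form the shell in which iron is stored, and macrophages free iron from the heme of old red cells with heme oxygenase 1 (Hmox1). NRAMP1 (Slc11a1) pumps divalent metals out of the phagosome, and C57BL/6 mice carry an impaired allele of it. Ferroportin (Slc40a1) is the iron exporter. When iron is scarce, the iron regulatory proteins (IRP2 is the product of Ireb2, IRP1 of Aco1) bind a hairpin called the iron-responsive element: in a 5′ UTR this blocks translation, and in the Tfrc 3′ UTR it protects the mRNA from decay.

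The hairpins are printed because they are the sequences through which the iron regulatory proteins act, and the search matched some of the 10 members, not all. They were searched on the transcript strand of the UTRs of the GENCODE M21 gene models on GRCm38, the same assembly as mm10, as the loop CAGTGN with the 5 bases before it paired to the 5 bases after it, G–T pairs allowed, and a C just before that stem. A gene with such a match in its 5′ UTR was found in 28 of 20873 genes (0.134%), and in its 3′ UTR in 127 of 20987 genes (0.605%). Of the 10 members, 3 had a match in the 5′ UTR and 1 in the 3′ UTR. Capitals mark the 6-base loop, and each line gives 29 bases, 5′ to 3′ on the transcript.
Slc40a1, 5′ UTR, chr1:45925465-45925493, minus strand: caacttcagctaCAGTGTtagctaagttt
Fth1, 5′ UTR, chr19:9982732-9982760, plus strand: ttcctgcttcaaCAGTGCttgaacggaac
Ftl1, 5′ UTR, chr7:45459779-45459807, minus strand: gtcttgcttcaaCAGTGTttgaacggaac
Tfrc, 3′ UTR, chr16:32631219-32631247, plus strand: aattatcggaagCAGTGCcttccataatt
Tfrc, 3′ UTR, chr16:32631598-32631626, plus strand: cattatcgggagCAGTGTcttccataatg
Tfrc, 3′ UTR, chr16:32631663-32631691, plus strand: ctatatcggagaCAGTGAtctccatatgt
Tfrc, 3′ UTR, chr16:32631710-32631738, plus strand: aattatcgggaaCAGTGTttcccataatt

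Of the 7 hairpins 4 lie in Tfrc; the CAGTG at the start of each loop was required by the search. The search describes letters and their pairing and does not measure binding. The absence of a match in the other 6 members says only that no stretch of the UTRs searched met every rule. A hairpin whose stem is not fully paired would be missed, so such an element may still be present in them.

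By their loci in mm10, Slc40a1 lies at chr1:45908070-45925594, Slc11a1 at chr1:74375203-74386051 and Steap3 at chr1:120226416-120271082. Slc11a2 lies at chr15:100387900-100423055, Slc39a14 at chr14:70303467-70351424, Fth1 at chr19:9980600-9985111 and Ftl1 at chr7:45457944-45459886. Tfrc lies at chr16:32608896-32632794, Hmox1 at chr8:75093618-75100593 and Ireb2 at chr9:54863755-54912534. All 10 are protein-coding genes, and the values are over whole genes, so transcript forms were not told apart.

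The tables give FPKM (fragments per kilobase of transcript, scaled to the mapped fragments of the library). The width of the deposited confidence intervals implied 21.5 to 37.9 × 1e6 fragments a library, lowest in Ern1f/fLyz2-Cre control of set 2 and highest in Ern1f/fLyz2-Cre IL-4 of set 1. Ern1 itself was at 7.43 and 10.98 FPKM in Ern1f/fLyz2-Cre IL-4, 14.3 and 12.7 FPKM in Ern1f/fLyz2-Cre control, 10.2 and 9.11 FPKM in Ern1f/f IL-4 and 11.5 and 9.55 FPKM in Ern1f/f control. A value over the whole gene cannot show the loss of part of it, so Ern1 does not check the genotype labels. Lyz2, the locus of the Cre, was at 5780 and 1572 FPKM in Ern1f/fLyz2-Cre IL-4 and 10949 and 2171 FPKM in Ern1f/fLyz2-Cre control, against 8901 and 11961 FPKM in Ern1f/f IL-4 and 18114 and 17415 FPKM in Ern1f/f control. It was lower in Ern1f/fLyz2-Cre than in Ern1f/f in both sets and both treatments, but not by like amounts. In set 1 it was at 0.649 of Ern1f/f with IL-4 and 0.604 in control, and in set 2 at 0.131 and 0.125. Of 10 known IL-4 targets of alternative activation, all rose in the averaged comparison with the block, against 5.88% of all genes. Without the block 7 of them rose, against 0.668% of all genes. In sets 1 and 2 the 10 summed to 2568 and 9543 FPKM in Ern1f/fLyz2-Cre IL-4, against 66.2 and 1226 FPKM in Ern1f/fLyz2-Cre control. In Ern1f/f the sum was 2186 and 5271 FPKM with IL-4, against 53.6 and 1059 FPKM in control. The set 2 control thus lay far above the set 1 control in each genotype. Of 11 macrophage markers 10 were in the table and were tested. For IL-4 averaged over genotypes, with the block, 1 of them rose (5.88% of all genes) and 2 fell (6.86%). The median difference of these markers was -0.19 on the log2 scale. Their sum in set 1 and set 2 was 13372 and 9063 FPKM in Ern1f/fLyz2-Cre IL-4 against 17601 and 7730.4 FPKM in Ern1f/fLyz2-Cre control, and 16547 and 18299 FPKM in Ern1f/f IL-4 against 25418 and 22767 FPKM in Ern1f/f control. The sum, which holds Lyz2, was lower with IL-4 in 3 of the 4 pairs, and its part in the members' results was not tested. Of 6 B cell markers, Cd79b was the 1 that reached 1 FPKM (0.524 to 16.6 FPKM), and it fell with IL-4 in the blocked fit. The B cell sum was 1.45 and 7.82 FPKM in Ern1f/fLyz2-Cre IL-4 against 2.41 and 16.8 FPKM in Ern1f/fLyz2-Cre control, and 0.791 and 5.32 FPKM in Ern1f/f IL-4 against 1.90 and 12.03 FPKM in Ern1f/f control. It was lower with IL-4 in 4 of 4 pairs, and its part in the members' results was not tested either. None of the listed T or NK cell, dendritic cell or erythroid markers reached 1 FPKM in any library. The dendritic cell list was Flt3, Zbtb46, Xcr1, Clec9a, Siglech and Ccr7. Itgax, named below, was not in it, and was at 253.9 to 333.1 FPKM with IL-4 against 55.1 to 83.3 FPKM in control. Fibroblast markers summed to 83.5 to 472.0 FPKM in the 4 libraries of set 1 and to 3.0 to 8.16 FPKM in the 4 of set 2, so the sets stand apart in them.

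The first question is how IL-4 changed the 10 genes. With IL-4, transcripts of the transferrin receptor were 2.37 to 3.21 times the control level in each genotype and set. Those of the exporter ferroportin were at 0.198 to 0.392 of control, of the phagosomal transporter NRAMP1 at 0.399 to 0.531, of the importer ZIP14 at 0.609 to 0.738 and of ferritin heavy chain at 0.684 to 0.775. In the limma fit with the replicate number as a block, Tfrc rose and Slc40a1, Slc11a1, Slc39a14 and Fth1 fell, averaged over the genotypes, so 5 of 10 members passed an adjusted p of 0.05 against 12.7% of the 10934 genes tested. Without the block, Slc11a1 was the 1 member that passed, against 0.841% of the genes tested (0.668% higher and 0.174% lower). By direction, the block fit called 1 of 10 members higher against 5.88% of all genes, and 4 of 10 lower against 6.86%. The median difference over the 10 members was -0.25 on the log2 scale, against -0.03 over all genes tested.

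**Figure D1:**
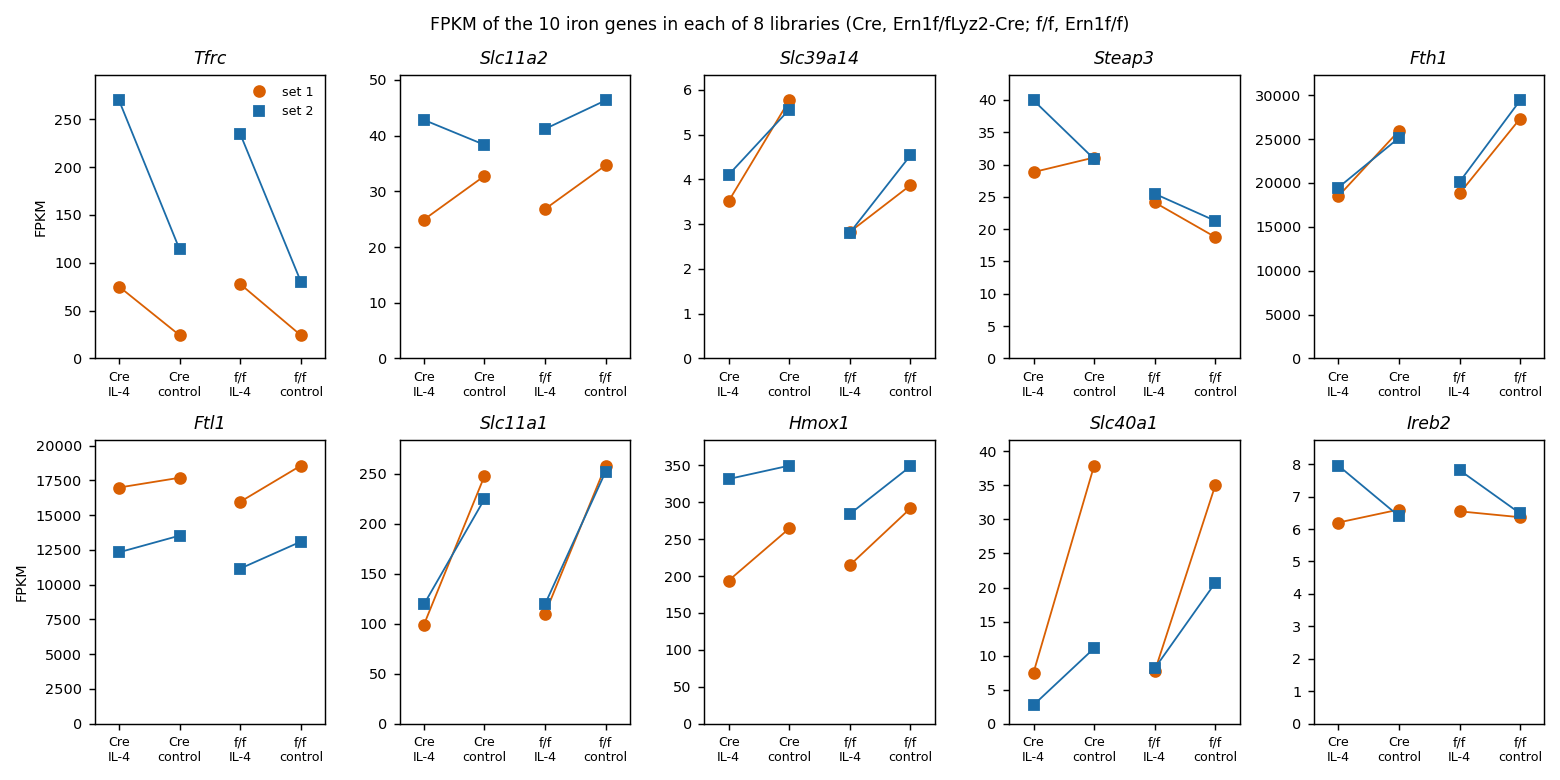
FPKM of each iron gene in the 8 libraries, 1 panel a gene, with IL-4 left of control in each genotype; each point is a library and each line joins the IL-4 and control libraries of a set. In the Tfrc panel every IL-4 point lies above the control point of its set, and in the Slc40a1, Slc11a1, Slc39a14 and Fth1 panels every IL-4 point lies below it.

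Tfrc was at 75.1 and 269.8 FPKM in Ern1f/fLyz2-Cre IL-4, against 24.1 and 113.9 FPKM in Ern1f/fLyz2-Cre control (set 1 and set 2). In Ern1f/f it was at 77.7 and 234.7 FPKM with IL-4, against 24.2 and 80.3 FPKM in control. Set 2 was above set 1 in all 4 groups, and the set 2 controls lay above the set 1 IL-4 libraries, so the groups overlapped unless compared within a set. The difference averaged over genotypes was 1.50 ± 0.11 (log2, SE) with the block (limma adjusted p = 0.00136) and had an SE of 0.75 without it (limma adjusted p = 0.456). Tfrc remained past the threshold in the blocked fit when any 1 library was left out, with limma adjusted p from 0.00177 to 0.0173. Proliferating cells express more transferrin receptor, and 16 cell cycle genes were read beside it. Their summed level in set 1 and set 2 was 537.0 and 591.9 FPKM in Ern1f/fLyz2-Cre IL-4, against 334.1 and 343.5 FPKM in Ern1f/fLyz2-Cre control. The same sum was 533.1 and 498.0 FPKM in Ern1f/f IL-4, against 369.0 and 303.8 FPKM in Ern1f/f control. Pcna, the most abundant of the 16, was alone at 195.9 to 449.4 FPKM over the libraries, so the sum mostly follows that gene. The median difference over the 16, averaged over genotypes, was 0.30 on the log2 scale, against -0.03 over all genes tested. With the block, 6 of the 16 rose with IL-4 and 0 fell, against 5.88% of all genes higher, and 1 to 5 rose when any 1 library was left out. Their part in the Tfrc result was not tested. In bulk RNA, fewer cells of a type and less RNA per cell cannot be told apart.

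Slc11a2, the endosomal importer DMT1, was at 24.9 and 42.8 FPKM in Ern1f/fLyz2-Cre IL-4 against 32.8 and 38.4 FPKM in Ern1f/fLyz2-Cre control, and at 26.8 and 41.2 FPKM in Ern1f/f IL-4 against 34.7 and 46.3 FPKM in Ern1f/f control. The IL-4 library was the higher one in 1 of 4 pairs, and the difference of -0.19 ± 0.10 (log2, SE, with block) had a limma adjusted p of 0.282. Steap3, the ferrireductase, was at 28.8 and 39.9 FPKM in Ern1f/fLyz2-Cre IL-4 against 31.1 and 30.9 FPKM in Ern1f/fLyz2-Cre control, and at 24.1 and 25.5 FPKM in Ern1f/f IL-4 against 18.8 and 21.3 FPKM in Ern1f/f control. IL-4 was the higher of the pair in 3 of 4 cases, and the mean difference of 0.21 ± 0.097 had a limma adjusted p of 0.198 with the block. The pairs did not share 1 direction for either gene.

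Slc39a14, which imports iron not bound to transferrin, was the least abundant importer. It was at 3.52 and 4.10 FPKM in Ern1f/fLyz2-Cre IL-4 against 5.77 and 5.56 FPKM in Ern1f/fLyz2-Cre control, and at 2.83 and 2.81 FPKM in Ern1f/f IL-4 against 3.87 and 4.54 FPKM in Ern1f/f control. All 4 IL-4 libraries lay below the control library of their genotype and set. The averaged difference was -0.46 ± 0.081 with the block (limma adjusted p = 0.0171) and the adjusted p was 0.105 without it. This call rested on single libraries: without Ern1f/fLyz2-Cre IL-4 replicate 1 the limma adjusted p was 0.0717, without Ern1f/fLyz2-Cre control replicate 1 it was 0.0608, and without Ern1f/f IL-4 replicate 2, Ern1f/f control replicate 1 and Ern1f/f control replicate 2 it was 0.0589, 0.0572 and 0.0757. With no filter on low values the blocked fit gave 0.0634.

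The ferritin subunits were the most abundant members by far. Fth1, the heavy chain that oxidises iron on entry, was at 18491 and 19472 FPKM in Ern1f/fLyz2-Cre IL-4 against 25942 and 25134 FPKM in Ern1f/fLyz2-Cre control. In Ern1f/f it was at 18801 and 20115 FPKM with IL-4 against 27339.6 and 29412 FPKM in control. No IL-4 library overlapped a control library. The averaged difference was -0.49 ± 0.077 with the block (limma adjusted p = 0.0122), and -0.49 ± 0.074 without it (limma adjusted p = 0.0556). The blocked call was lost without each of the 4 Ern1f/f libraries, with limma adjusted p of 0.0648 without IL-4 replicate 1, 0.0513 without IL-4 replicate 2, 0.0820 without control replicate 1 and 0.0863 without control replicate 2. It was also lost in the blocked fit with no filter on low values (limma adjusted p = 0.606).

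Ftl1, the light chain that aids the mineral core, was at 16989.5 and 12329 FPKM in Ern1f/fLyz2-Cre IL-4 against 17695 and 13531 FPKM in Ern1f/fLyz2-Cre control, and at 15964 and 11161 FPKM in Ern1f/f IL-4 against 18566 and 13096 FPKM in Ern1f/f control. Each IL-4 library was at 0.852 to 0.960 of its control, and the difference of -0.16 ± 0.076 did not pass (limma adjusted p = 0.212 with the block). The ratio of heavy to light chain was 1.09 and 1.58 in Ern1f/fLyz2-Cre IL-4 against 1.47 and 1.86 in Ern1f/fLyz2-Cre control, and 1.18 and 1.80 in Ern1f/f IL-4 against 1.47 and 2.25 in Ern1f/f control. Together the subunits made up 5.62 to 5.79% of all FPKM in Ern1f/fLyz2-Cre IL-4 against 7.205 to 7.28% in Ern1f/fLyz2-Cre control, and 5.87 to 6.105% in Ern1f/f IL-4 against 7.30 to 7.70% in Ern1f/f control. Both ferritin genes have processed copies in the genome, so reads may be shared with those copies and the levels are uncertain to that extent. Among other ferritin-like symbols, Fthl17 was in the tables and was listed at 0.

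Slc11a1, which pumps metal out of phagosomes, was at 98.9 and 119.3 FPKM in Ern1f/fLyz2-Cre IL-4 against 247.9 and 224.9 FPKM in Ern1f/fLyz2-Cre control. In Ern1f/f it was at 110.1 and 119.7 FPKM with IL-4 against 258.3 and 252.4 FPKM in control. The highest IL-4 library was far below the lowest control library in both genotypes. The averaged difference was -1.13 ± 0.10 without the block (limma adjusted p = 0.0130) and -1.13 ± 0.094 with it (limma adjusted p = 0.00174). In the blocked fit it stayed past the threshold when any 1 of the 8 libraries was left out (limma adjusted p from 0.00484 to 0.0156), and in the fit without the block it was lost in each of those 8 fits.

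Hmox1, the enzyme that opens heme and releases its iron, was at 193.9 and 331.4 FPKM in Ern1f/fLyz2-Cre IL-4 against 264.4 and 349.5 FPKM in Ern1f/fLyz2-Cre control, and at 214.7 and 284.1 FPKM in Ern1f/f IL-4 against 291.7 and 348.6 FPKM in Ern1f/f control. It was below its control in 4 of 4 pairs, and set 2 was above set 1 in every group. The difference of -0.31 ± 0.10 did not pass with the block (limma adjusted p = 0.102) or without it (0.609). The ratio to control ran from 0.733 to 0.948 over the pairs.

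Slc40a1, the exporter, was at 7.51 and 2.74 FPKM in Ern1f/fLyz2-Cre IL-4 against 37.9 and 11.1 FPKM in Ern1f/fLyz2-Cre control. In Ern1f/f it was at 7.69 and 8.13 FPKM with IL-4 against 35.03 and 20.7 FPKM in control. All 4 IL-4 libraries were below all 4 control libraries, by 2.55-fold to 5.05-fold within a genotype and set. The averaged difference was -1.80 ± 0.26 with the block (limma adjusted p = 0.00944) and -1.80 ± 0.45 without it (limma adjusted p = 0.172). The blocked call was lost without Ern1f/fLyz2-Cre IL-4 replicate 2 (limma adjusted p = 0.0546) and without Ern1f/f control replicate 2 (0.0508), and with no filter on low values (0.0542). Fibroblast markers, which differed between the sets, summed in set 1 to 215.2 FPKM in Ern1f/fLyz2-Cre IL-4 against 472.0 FPKM in Ern1f/fLyz2-Cre control, and to 83.5 FPKM in Ern1f/f IL-4 against 172.4 FPKM in Ern1f/f control. In set 2 they summed to 3.0 FPKM in Ern1f/fLyz2-Cre IL-4 against 3.83 FPKM in Ern1f/fLyz2-Cre control. In Ern1f/f of set 2 the sum was 8.15 FPKM with IL-4 against 8.16 FPKM in control. Slc40a1 fell 5.05-fold in set 1 and 4.04-fold in set 2 in Ern1f/fLyz2-Cre. In Ern1f/f it fell 4.56-fold in set 1 and 2.55-fold in set 2. The part of the fibroblast markers in the Slc40a1 result was not tested. Erythroid markers, of which 9 of 12 were in the table, summed to at most 1.24 FPKM in any library, with Slc4a1 and Tspo2 at 0. Slc40a1 rested on 270 to 4783 fragments a library, with a deposited interval of up to 12.2% of its value to each side.

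Ireb2, the sensor IRP2, was at 6.20 and 7.96 FPKM in Ern1f/fLyz2-Cre IL-4 against 6.60 and 6.40 FPKM in Ern1f/fLyz2-Cre control, and at 6.55 and 7.82 FPKM in Ern1f/f IL-4 against 6.36 and 6.48 FPKM in Ern1f/f control. It was higher with IL-4 in 3 of 4 pairs, and the difference of 0.12 ± 0.087 did not pass (limma adjusted p = 0.410 with the block). IRP2 is regulated mainly by protein breakdown, which these data do not measure.

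**Figure D2:**
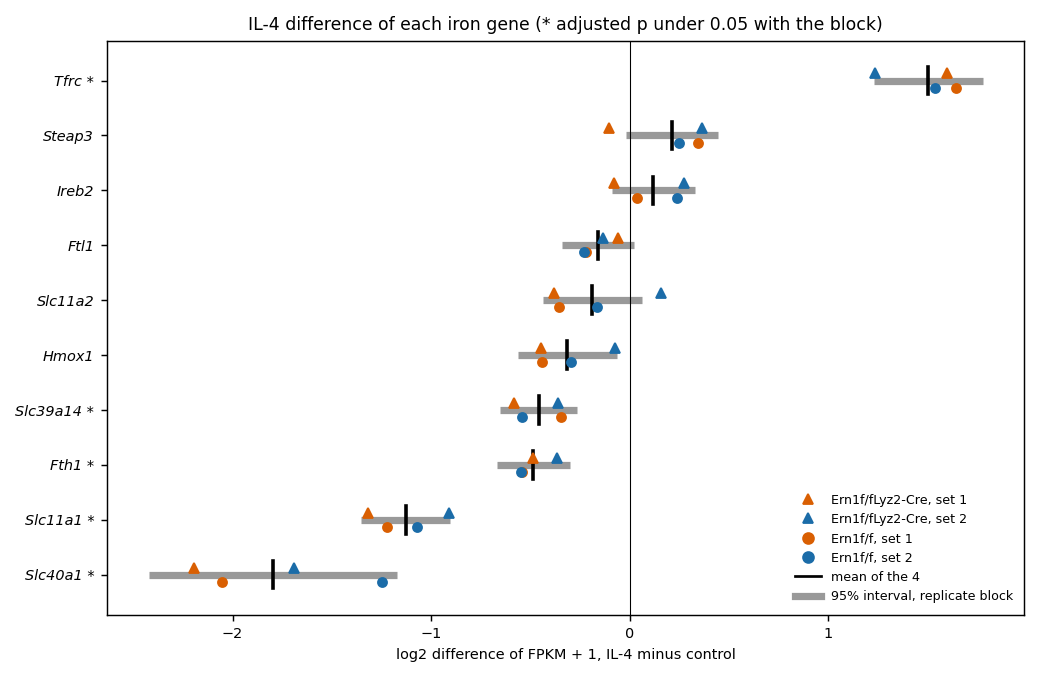
Difference between IL-4 and control for each iron gene on the log2(FPKM + 1) scale; each point is 1 genotype in 1 set, the black bar is the mean of the 4 and the grey bar its 95% interval, not adjusted, from the limma fit with the replicate block, with a star at genes called there. Tfrc lies above 0 and Slc40a1, Slc11a1, Slc39a14 and Fth1 lie below 0 with their whole bars. The whole bar of Hmox1 also lies below 0, without a star.

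Within single genotypes, the fit without the block called 0 of 10 members for IL-4 in Ern1f/fLyz2-Cre (0.0549% of all genes, with 4 members and 933 genes at an unadjusted p under 0.05). It called 0 of 10 in Ern1f/f (0% of all genes, with 4 members and 673 genes at an unadjusted p under 0.05). With the block, 3 members passed in Ern1f/fLyz2-Cre against 3.32% of all genes, 1 of them higher (1.79% of all genes) and 2 lower (1.53%). In Ern1f/f 2 members passed against 2.12% of all genes, 1 higher (1.26%) and 1 lower (0.86%). Tfrc rose in both genotypes, with 1.42 ± 0.16 in Ern1f/fLyz2-Cre (limma adjusted p = 0.0126) and 1.59 ± 0.16 in Ern1f/f (0.0109). Slc11a1 fell in both, with -1.11 ± 0.13 in Ern1f/fLyz2-Cre (limma adjusted p = 0.0140) and -1.15 ± 0.13 in Ern1f/f (0.0151). For Slc40a1 the difference was -1.94 ± 0.37 in Ern1f/fLyz2-Cre (limma adjusted p = 0.0470) and -1.65 ± 0.37 in Ern1f/f (0.0811). With the block and no filter on low values 0 members passed in either genotype: limma adjusted p was 0.0743 for Tfrc, 0.0721 for Slc11a1 and 0.157 for Slc40a1 in Ern1f/fLyz2-Cre, and 0.0739 for both Tfrc and Slc11a1 in Ern1f/f. With rescaling the blocked Slc40a1 call in Ern1f/fLyz2-Cre was lost (limma adjusted p = 0.0570). Each of these calls was also lost without some single libraries. In Ern1f/f, the limma adjusted p of Slc11a1 was 0.120, 0.0579, 0.156 and 0.0971 without IL-4 replicate 1, IL-4 replicate 2, control replicate 1 and control replicate 2. That of Tfrc in Ern1f/f was 0.0862, 0.129 and 0.0936 without IL-4 replicate 1, control replicate 1 and control replicate 2. In Ern1f/fLyz2-Cre, Slc11a1 came to 0.125, 0.0818 and 0.0852 and Tfrc to 0.130, 0.108 and 0.0541 without IL-4 replicate 1, IL-4 replicate 2 and control replicate 1 of that genotype. Slc40a1 in Ern1f/fLyz2-Cre came to 0.229, 0.191 and 0.179 without those same libraries, and to 0.0922 and 0.0959 without Ern1f/f control replicate 1 and replicate 2.

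Whether the IL-4 difference depended on genotype was tested as an interaction, which no member passed (limma called 0 genes, 0%, with or without the block; 103 genes with it and 19 without it had an unadjusted p under 0.05, and 0 members did). The IL-4 difference in Ern1f/fLyz2-Cre minus that in Ern1f/f was -0.17 for Tfrc, with a 95% interval from -0.72 to 0.38 in the blocked limma fit. For Slc11a1 it was 0.03 (-0.42 to 0.48), for Fth1 0.12 (-0.25 to 0.48), for Slc39a14 -0.03 (-0.42 to 0.36) and for Slc40a1 -0.29 (-1.54 to 0.96), all on the log2 scale and not adjusted. Of these 5 blocked intervals that of Slc40a1 was the widest. Without the block that of Tfrc was the widest, from -3.86 to 3.52, and that of Slc40a1 ran from -2.50 to 1.92. These intervals do not show that the genotypes respond alike.

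The second question is what the Lyz2-Cre genotype changed. No member passed in either treatment, with or without the block; limma called 0 genes (0%) in control in both fits, and 0 genes without the block and 1 gene (0.00915%) with it under IL-4. In the blocked fit 137 genes in control and 189 genes with IL-4 had an unadjusted p under 0.05 (27 and 42 without the block), and 2 members were among them each time, Steap3 and Slc39a14. The medians over the 10 members were -0.04 in control and 0.0074 with IL-4, against -0.00131 and 0.017 over all genes tested.

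Steap3 was higher in Ern1f/fLyz2-Cre than in Ern1f/f in 4 of 4 pairs. It averaged 30.97 ± 0.159 FPKM in Ern1f/fLyz2-Cre control against 20.03 ± 1.78 FPKM in Ern1f/f control, and 34.4 ± 7.85 FPKM in Ern1f/fLyz2-Cre IL-4 against 24.8 ± 0.95 FPKM in Ern1f/f IL-4 (SD, n = 2 each). The ratio ran from 1.19 to 1.66, and the log2 difference was 0.61 ± 0.14 in control and 0.44 ± 0.14 with IL-4 (SE, with the block). The IL-4 value was 0.249 without Ern1f/fLyz2-Cre IL-4 replicate 2 and 0.627 without Ern1f/fLyz2-Cre IL-4 replicate 1 in the blocked fit. Slc39a14 averaged 5.67 ± 0.145 FPKM in Ern1f/fLyz2-Cre control against 4.21 ± 0.473 FPKM in Ern1f/f control, and 3.81 ± 0.417 FPKM in Ern1f/fLyz2-Cre IL-4 against 2.82 ± 0.0133 FPKM in Ern1f/f IL-4 (SD, n = 2 each). Its ratio ran from 1.23 to 1.49 over the 4 pairs, with log2 differences of 0.36 and 0.33. After adjustment over all genes by limma neither passed. The control libraries of Ern1f/f, and of Ern1f/fLyz2-Cre, also stand in the IL-4 comparisons above, so the comparisons are not independent. Slc40a1 differed by genotype in set 2 more than in set 1: in set 2 it was at 0.337 of Ern1f/f with IL-4 and at 0.535 in control, and in set 1 at 0.976 with IL-4 and at 1.08 in control. Its log2 differences of -0.66 ± 0.37 with IL-4 and -0.37 ± 0.37 in control (SE, with the block) did not pass (limma unadjusted p = 0.121 and 0.355). Slc11a1 and Fth1 were lower in Ern1f/fLyz2-Cre in 4 of 4 pairs, by small amounts (0.891 to 0.997 and 0.855 to 0.984 of Ern1f/f).

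**Figure D3:**
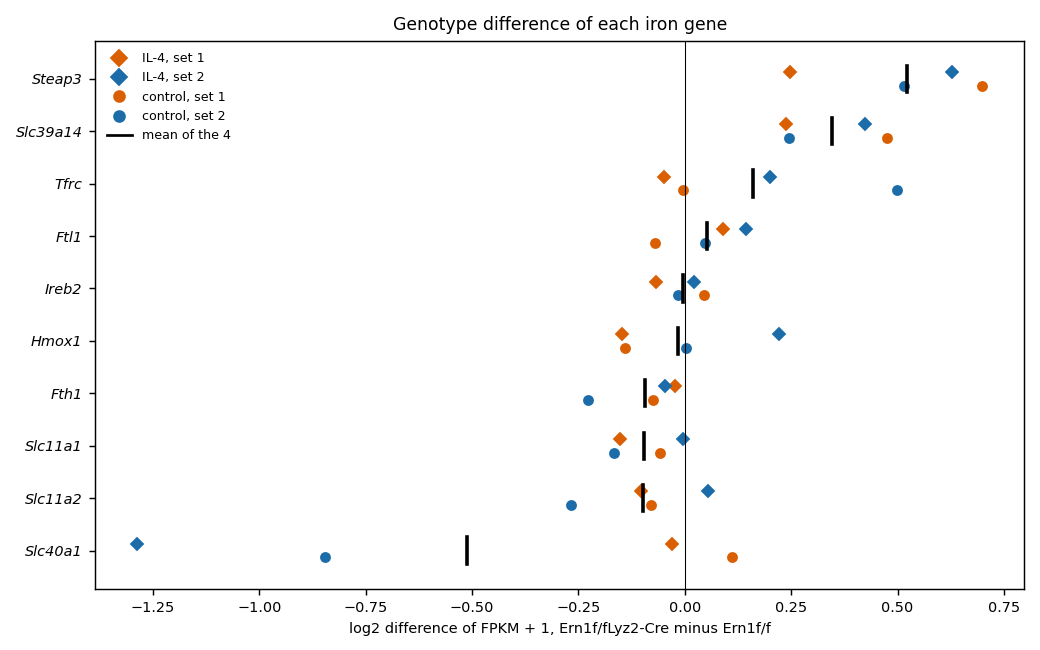
Difference between Ern1f/fLyz2-Cre and Ern1f/f for each iron gene on the log2(FPKM + 1) scale; each point is 1 treatment in 1 set (diamonds IL-4, circles control) and the black bar is the mean of the 4 points. All 4 points of Steap3 and of Slc39a14 lie above 0, and no gene passed the adjusted threshold.

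The sets themselves differed, which was not tested, since a set is a replicate number and not a condition of the study. Tfrc was 3.02 to 4.72 times as high in set 2 as in set 1 in the 4 groups, beside the 2.37 to 3.21 times that IL-4 libraries showed over their controls. Slc11a2 was at 1.17 to 1.72 and Hmox1 at 1.20 to 1.71 times the set 1 level, and Ftl1 at 0.699 to 0.765, each in the same direction in 4 of 4 groups. Fth1 hardly moved between sets, at 0.969 to 1.08. Slc40a1 was lower in set 2 in 3 of 4 groups, with ratios from 0.292 to 1.06. Over all libraries the pattern is that Tfrc was lowest and Slc40a1 highest in the control libraries of set 1, and Slc40a1 lowest and Tfrc highest in Ern1f/fLyz2-Cre IL-4 of set 2.

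**Figure D4:**
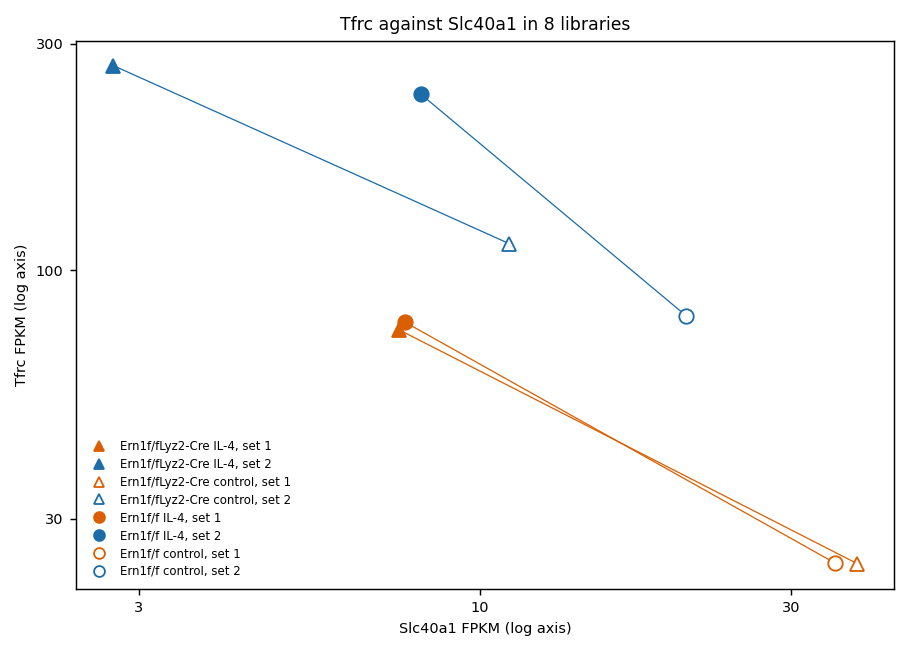
Tfrc against Slc40a1 in FPKM, both axes on a log scale, with 1 point a library; triangles are Ern1f/fLyz2-Cre and circles Ern1f/f, filled for IL-4 and open for control, orange for set 1 and blue for set 2, and lines join an IL-4 library to its control. The IL-4 libraries lie towards more Tfrc and less Slc40a1 than the control library of their set and genotype, and set 2 lies towards more Tfrc than set 1.

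The other genes of iron and heme handling were read from 5 further lists, in the same fits. Without the block, 0 genes of any of them passed for IL-4 averaged over genotypes (0.841% of all genes). The same held in Ern1f/fLyz2-Cre alone (0.0549% of all genes) and in Ern1f/f alone (0%). In the blocked fit 5.88% of all genes were called higher and 6.86% lower, which is the background for each list below. With the block, 5 of 8 tested genes of iron transport and reduction fell and 0 rose, with a median of -0.39 over the list against -0.03 over all genes. That list names 19 genes, all in the table, and the others did not pass the filter on low values. When any 1 library was left out, between 1 and 4 of them were called lower. Trf, transferrin, the most abundant gene of the list, went the other way without passing (0.67, limma adjusted p = 0.140 with the block). It was at 396.9 and 474.2 FPKM in Ern1f/fLyz2-Cre IL-4 against 299.1 and 221.7 FPKM in Ern1f/fLyz2-Cre control. In Ern1f/f it was at 367 and 162.5 FPKM with IL-4 against 255.2 and 102 FPKM in control. Slc25a37, mitoferrin 1, which takes iron into mitochondria, was at 4.53 and 6.62 FPKM in Ern1f/fLyz2-Cre IL-4 against 10.4 and 13.1 FPKM in Ern1f/fLyz2-Cre control, and at 4.07 and 4.86 FPKM in Ern1f/f IL-4 against 7.77 and 8.66 FPKM in Ern1f/f control. It fell by 0.86 on the log2 scale (limma adjusted p = 0.00274 with the block). With the block it also passed in each genotype, with limma adjusted p of 0.0140 in Ern1f/fLyz2-Cre and 0.0311 in Ern1f/f. Without the block the limma adjusted p was 0.283 and 0.498. Its paralog Slc25a28 fell by 0.33 (limma adjusted p = 0.0460), as did Mcoln1, a lysosomal cation channel, by 0.35 (0.0333).

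Lcn2, lipocalin 2, which binds the iron carriers of bacteria, fell by 1.62 (limma adjusted p = 0.0194 with the block). It was at 0.876 and 16.3 FPKM in Ern1f/fLyz2-Cre IL-4 against 7.42 and 58.0 FPKM in Ern1f/fLyz2-Cre control, and at 2.14 and 14.1 FPKM in Ern1f/f IL-4 against 2.74 and 73.0 FPKM in Ern1f/f control. Each IL-4 library lay below its own control, while set 2 lay far above set 1. Cp, ceruloplasmin, the ferroxidase that loads iron onto transferrin, fell by 0.43 (limma adjusted p = 0.0425); without the block its difference ran from -1.13 to 0.279 when single libraries were left out. Lcn2 is also a granule gene of neutrophils. In sets 1 and 2 neutrophil markers summed to 26.0 and 26.6 FPKM in Ern1f/fLyz2-Cre IL-4, against 31.2 and 35.4 FPKM in Ern1f/fLyz2-Cre control. In Ern1f/f these markers summed to 12.6 and 31.3 FPKM with IL-4, against 24.9 and 49.9 FPKM in control. The sum was lower with IL-4 in each genotype and set. Of 11 neutrophil markers 10 were in the table, 4 reached 1 FPKM and Retnlg was at 0. Of the 3 that were tested, 1 was called lower in the averaged comparison with the block, against 6.86% of all genes. The part of these markers in the Lcn2 result was not tested.

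Of 11 tested genes of iron storage and sensing, 2 rose (5.88% of all genes) and 0 fell with the block, with a median of 0.03, and 1 or 2 were called higher when any 1 library was left out; without Ern1f/fLyz2-Cre IL-4 replicate 2, 1 was also called lower. Hfe, a partner of transferrin receptors in hepcidin control, was at 75.2 and 67.1 FPKM in Ern1f/fLyz2-Cre IL-4 against 47.1 and 29.6 FPKM in Ern1f/fLyz2-Cre control, and at 79.7 and 57.3 FPKM in Ern1f/f IL-4 against 47.4 and 27.04 FPKM in Ern1f/f control. Its rise of 0.90 ± 0.12 had a limma adjusted p of 0.00639 with the block. In the same fit the difference was 0.91 in Ern1f/fLyz2-Cre (limma adjusted p = 0.0396) and 0.90 in Ern1f/f (0.0509). Without the block the limma adjusted p in these genotypes was 0.561 and 0.783. Aco1, the cytosolic aconitase that also acts as IRP1, rose by 0.40 ± 0.097 (limma adjusted p = 0.0438 with the block). It was at 21.9 and 21.99 FPKM in Ern1f/fLyz2-Cre IL-4 against 18.8 and 13.1 FPKM in Ern1f/fLyz2-Cre control, and at 22.2 and 17.5 FPKM in Ern1f/f IL-4 against 17.2 and 13.6 FPKM in Ern1f/f control.

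Of 12 tested genes of heme uptake, transport and breakdown, 4 fell (6.86% of all genes) and 0 rose with the block (median -0.21), and 2 to 4 were called lower when any 1 library was left out. Spic, the transcription factor that heme induces in red pulp macrophages and that drives Slc40a1, was at 1.38 and 2.79 FPKM in Ern1f/fLyz2-Cre IL-4 against 4.47 and 8.34 FPKM in Ern1f/fLyz2-Cre control, and at 0.901 and 4.19 FPKM in Ern1f/f IL-4 against 3.52 and 12.99 FPKM in Ern1f/f control. It fell by 1.295 on the log2 scale (limma adjusted p = 0.00793 with the block). The part of Spic in the Slc40a1 result was not tested. Hp, haptoglobin, which binds free hemoglobin, fell by 1.22 (limma adjusted p = 0.00455 with the block). Its difference was -0.98 in Ern1f/fLyz2-Cre (limma adjusted p = 0.0530 with the block, 0.526 without it) and -1.46 in Ern1f/f (0.0221 and 0.390). Slc46a1, a heme and folate transporter, fell by 0.49 (0.0157 by limma), and Hmox2, the constitutive heme oxygenase, by 0.32 (0.0457 by limma).

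None of 8 tested genes of heme synthesis passed with the block, and 1 was called higher without Ern1f/f IL-4 replicate 2 and without Ern1f/fLyz2-Cre control replicate 2. The nearest were Alas1, its rate-limiting enzyme outside red cells (0.59, limma adjusted p = 0.0596), and Fech, which inserts the iron (-0.22, 0.240). Of 14 NRF2 targets outside iron handling, 3 fell (6.86% of all genes) and 0 rose with the block (median -0.08), with 1 to 3 called lower without any 1 library. Cat, catalase, was at 108.3 and 123.0 FPKM in Ern1f/fLyz2-Cre IL-4 against 202.3 and 174.0 FPKM in Ern1f/fLyz2-Cre control, and at 109.7 and 124.1 FPKM in Ern1f/f IL-4 against 189.8 and 190.7 FPKM in Ern1f/f control. It fell by 0.70 (limma adjusted p = 0.00797 with the block). The difference was -0.70 in each genotype, with a limma adjusted p of 0.0496 in Ern1f/fLyz2-Cre and 0.0592 in Ern1f/f with the block. Without the block the limma adjusted p was 0.287 and 0.324. Gsr, glutathione reductase, fell by 0.69 (0.0129 by limma) and Sqstm1, an autophagy receptor, by 0.49 (0.0361 by limma).

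**Figure D5:**
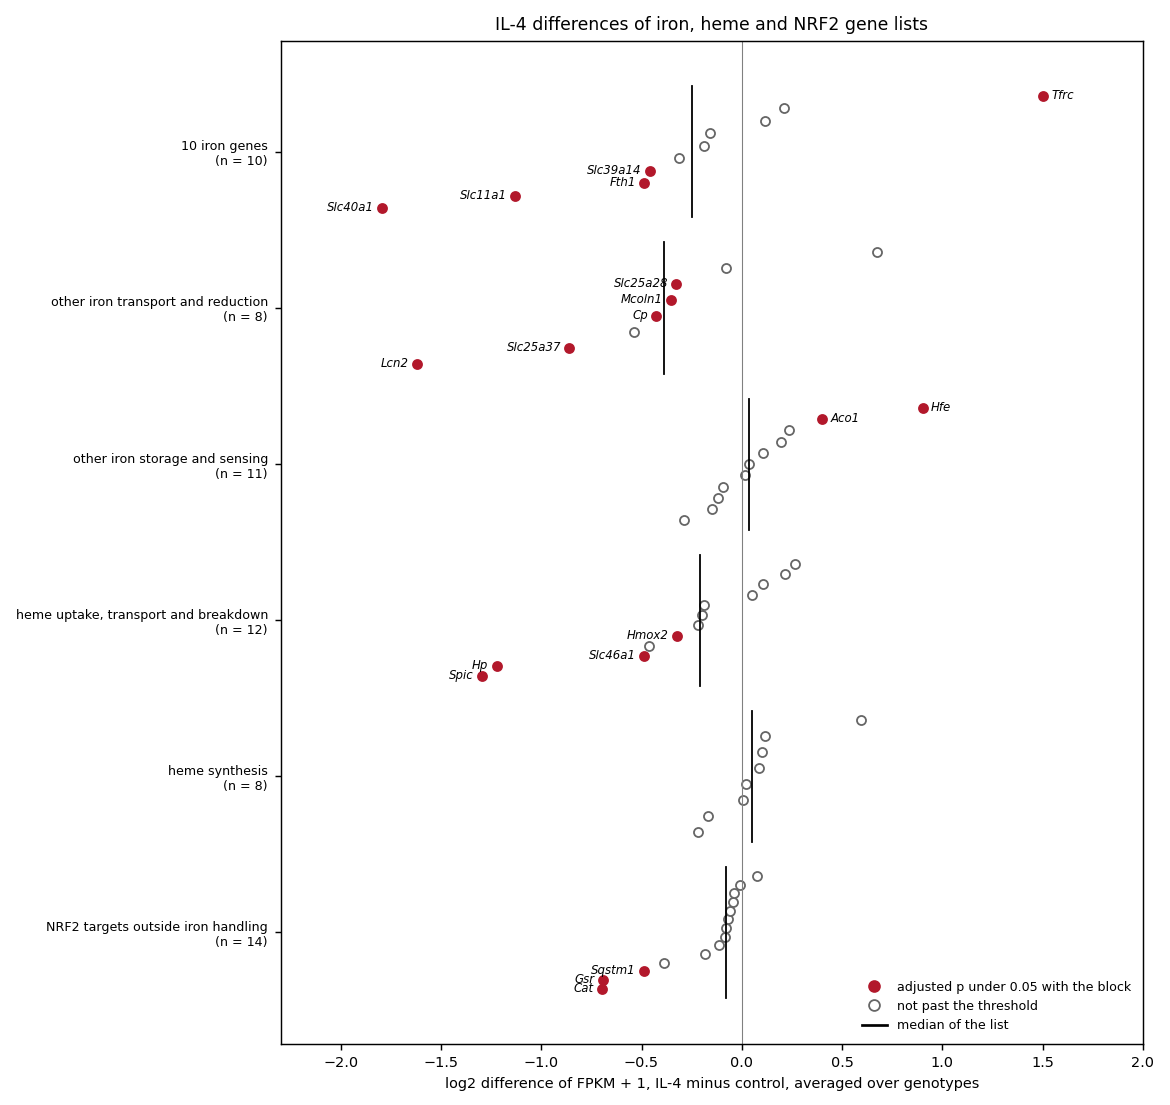
Log2 difference between IL-4 and control, averaged over genotypes, of each gene tested in 5 further lists and of the 10 iron genes; each point is a gene, red points passed in the blocked limma fit and the bar is the median of the list. Transport and reduction has its median at -0.39 with 5 red points below 0, and storage and sensing has 2 red points above 0.

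Other genes followed the members closely over the 8 libraries. Pearson's r was taken on log2(FPKM + 1) centred within each set, over 7404 genes with a mean of at least 5 FPKM, and it is given as a description: the points share libraries, depth and the IL-4 difference. Slc40a1 was followed most closely by Pira2 (r = 0.994), Bhlhe41 (0.991) and Mkrn2 (0.987), and Slc11a1 by Pilra (0.997), Ampd3 (0.996) and Ypel3 (0.995). For Tfrc the nearest were Itgax (0.994), Plxdc2 (0.992) and Tbxas1 (0.991), and for Hmox1 they were Cln8 (0.984), Tef (0.982) and Rap2b (0.978). Among the members, Tfrc ran opposite to Fth1 (r = -0.994), Slc11a1 (-0.989) and Slc40a1 (-0.958), and Slc11a1 and Fth1 ran together at 0.983, Slc40a1 and Fth1 at 0.948, and Slc40a1 and Slc11a1 at 0.931. Without centring within sets the same pairs gave -0.547, -0.600, -0.874, 0.981, 0.814 and 0.830.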

How the data were processed

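Each of the 8 tables holds 1 library's FPKM per gene, which the authors deposited together with a confidence interval. TopHat 1.4.1, Cufflinks 1.3.0 and mm10 are named per the submitters' processing notes, and the gene models are not given in the sources used here. Of the low genes (under 60 implied fragments), 73.0% to 75.0% lay within 0.02 of a whole number of fragments, so depth was estimated from the interval widths; the intervals cover counting error only. FPKM depends on the total, so a few very abundant genes can shift all others, and a rescaled alternative was run.

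Values were taken as log2(FPKM + 1), which understates the change of low genes. A gene was kept if 2 or more libraries, of any group, reached 1 FPKM (10934 genes). All 8 libraries in 4 title groups entered 1 linear model (limma 3.58.1, R 4.3.3; moderated with a mean-variance trend), 6 two-sided comparisons were made, and p-values were adjusted by Benjamini-Hochberg over all genes tested; under 0.05 counted as called. The fit without a block is the main one. Replicate numbers pair the libraries: the differences between replicates 2 and 1, across genes, correlated at r = 0.688 to 0.827 in all 6 pairs of groups, a pairing seen in the data and not stated in the labels, so the fit with the replicate number as a block is printed beside it where it changes a call. The scripts were tested on simulated data.

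The members and lists were chosen with earlier results of these data known. The genes named are all 10 members, the genes of 5 other lists that passed in either fit (otherwise the 2 with the smallest p), and the 3 genes closest in pattern to Slc40a1, Slc11a1, Hmox1 and Tfrc. Trf and Pcna were added as the most abundant genes of their lists. Loci are as the tables give them, with starts moved from 0-based to 1-based. Alternatives were a pseudocount of 0.1, no filter, a rescaling to a common median ratio, the replicate block, groups by the genotype field and each library left out. Figures were drawn with matplotlib 3.10.9.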

Additional observations from a re-analysis of the deposited data

How the results depend on the processing

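With 2 libraries a group and no stated animals, the precision is low, and most calls depend on whether the replicate number enters the fit. For the 47 single-gene differences tracked, 40 kept their direction under every alternative run and 7 turned in at least 1. Of 1128 single-gene alternative values, 1096 kept their direction and 32 changed sign.

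Numbers of genes called by limma, with members in the 10 iron genes. For IL-4 averaged over genotypes (92 genes, 1 member), the replicate block gave 1393 and 5, the block with a pseudocount of 0.1 gave 1506 and 5, with no filter 657 and 2 (Slc11a1 and Tfrc), with rescaling 1495 and 5, and the genotype field 2919 and 6. For IL-4 in Ern1f/fLyz2-Cre (6 genes, 0 members), a pseudocount of 0.1 gave 0, no filter 0 and rescaling 21 genes; the block gave 363 and 3, with a pseudocount of 0.1 449 and 3, with no filter 2 genes, with rescaling 381 and 2, and the field 1273 and 2. For IL-4 in Ern1f/f (0 and 0), rescaling gave 11 genes, the block 232 and 2, with a pseudocount of 0.1 280 and 2, with no filter 3 genes, with rescaling 233 and 2, and the field 2264 and 6. The field gave 3816 and 3 for genotype in control, 3273 and 5 for genotype with IL-4 (block 1 gene) and 106 for the interaction. The field groups are the replicate numbers, so these counts hold the difference between sets.

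Leaving out single libraries gave, without and with the block, 3 to 49 and 491 to 1226 genes for averaged IL-4 (members 0 and 2 to 5), 0 to 1 and 2 to 339 in Ern1f/fLyz2-Cre (members 0 and 0 to 3), 0 to 1 and 6 to 278 in Ern1f/f (members 0 and 0 to 3), 0 and 0 to 2 for genotype in control, and 0 and 0 to 1 for the interaction.

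Differences that turned, on the log2 scale, were Slc40a1 and Slc39a14 in the interaction under the genotype field (0.652 and 0.0143). With single libraries left out, without and with the block, they were Slc40a1 for genotype in control (-1.21 to 0.476 and -0.904 to 0.169) and the interactions of Slc40a1 (-1.13 to 0.553 and -0.927 to 0.345), Slc11a1 (-0.101 to 0.168 and -0.110 to 0.177), Slc39a14 (-0.122 to 0.0636 and -0.111 to 0.0522) and Tfrc (-1.27 to 0.924 and -0.418 to 0.0738). Slc11a2 (-0.377 to 0.00195) and Cp (-1.13 to 0.279) turned for averaged IL-4 without the block. Beyond the smaller number of libraries, the cause was not tested.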
